A study of Rattus norvegicus with 4 samples.

Results

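The chemokines, interleukins and their receptors of the rat carotid body (CB) were described in neonates and adults. The CB is the small organ at the carotid artery bifurcation that senses arterial O2. RNA sequencing had been performed on CBs of Sprague Dawley rats, with no treatment named in the labels, at day 5 (neonates) and at day 21 (adults, an age near weaning), with 2 libraries at each age. By the series' own description each neonatal library was a pool of CBs from 6 pups and each adult library a pool from 3 rats. The methods of the study give other pool sizes and more replicates, and which of them holds for these libraries could not be settled. The sexes were not separated. RNA of all 4 libraries was selected for poly A+ transcripts. The labels call the libraries biological replicates but do not say from which litters the pools came, so the p-values below measure the spread between these pools. Members were chosen by gene symbol, as any row named as a Ccl, Cxcl or Cx3cl chemokine, a chemokine receptor, an interleukin or an interleukin receptor chain. In all, 132 of 32883 rows of the count table matched, and 59 of these reached 1 CPM (counts relative to the library total) in at least 2 of the 4 libraries and were tested. The other 73 stayed below that level. Ccr2, the receptor of Ccl2, was not analysed here.

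Chemokines are small secreted proteins that direct the movement of leukocytes and of some stem and progenitor cells through G protein-coupled receptors. The atypical chemokine receptors bind the same ligands without activating G proteins, and take them up or transport them. Most interleukins act through a receptor made of a ligand-binding chain and a signalling chain that several cytokines share, such as gp130 (Il6st) for the interleukin-6 family, the common gamma chain (Il2rg) for the interleukin-2 family and the accessory protein Il1rap for the interleukin-1 family. Decoy receptors and binding proteins hold the ligand without a signal. In the CB, receptors for interleukin-1 beta and interleukin-6 have been described on glomus cells, the O2-sensing cells of the organ, and resident macrophages, mast cells, endothelial cells and fibroblasts are further possible sources and targets of these proteins.

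Each library held 36286191 to 39476110 estimated counts, so that 3 counts corresponded to 0.0734 to 0.0843 CPM after scaling. Values below are CPM scaled by the trimmed mean of M-values (TMM), given in the order replicate 1 and replicate 2, and fold changes are log2 of neonate over adult with their standard error, so a negative value is a higher level in adults. Levels are compared within a gene, because the table gives no gene lengths. Glomus cell transcripts were present at both ages: Th, the rate-limiting enzyme of catecholamine synthesis, was 1017 and 835 CPM in neonates and 1403 and 1132 CPM in adults. The neonatal libraries also held parathyroid and more erythroid transcripts. Pth, the hormone of the parathyroid gland, was 1769 and 208 CPM in neonates and 0 in both adult libraries, so neonate replicate 1 stood apart. The summed level of the erythroid list was 12879 and 7319 CPM in neonates and 2803 and 2446 CPM in adults. The part of these transcripts in the results was not tested. A bulk library cannot tell fewer cells of a type from less RNA per cell.

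More of these genes were higher in adults than in neonates. Of the 59 tested members, 22 (37.3%) were called lower in neonates and 8 (13.6%) higher, where a call is an adjusted p below 0.05 and at least a 2-fold difference in the quasi-likelihood test of edgeR, with p-values adjusted by Benjamini-Hochberg over 13843 genes. Among all genes tested, 13.2% were called lower and 7.68% higher. At an adjusted p below 0.05 with no minimum fold, 27 members were lower and 11 higher in neonates, beside 31.1% and 31.2% of all genes. The remaining 21 members did not pass. The median log2 fold change was -0.50 over the tested members and -0.0029 over all genes. The libraries of the 2 ages did not overlap for 45 members, or 76.3%, against 82.9% of all genes, so a gap between the ages was no more frequent among the members than elsewhere. Scaling by library size alone, without TMM, moved the median of all genes to -0.25 and called 5 members higher and 24 lower. With neonate replicate 1 left out, 8 members were called higher and 23 lower. With 2 libraries against 2, the smallest p that an exact permutation of the libraries can give for a gene is 0.333.

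The filter bears on these counts, since a gene low at one age enters through the other. Of the tested members, 42 reached 1 CPM in both libraries of both ages, and of those 42, 6 were called higher and 12 lower in neonates. Another 8 members reached 1 CPM in the adult libraries alone (Ackr2, Ccl24, Il13ra1, Il17rd, Il1rl2, Il20rb, Il2ra and Il7r), of which 7 were called. Ccl5 reached it in the neonatal libraries alone. The last 8, 4 of them called, reached it in some other combination of libraries. No share of all genes was counted under the same split. Whether the excess of lower members holds among genes at this level at both ages was therefore not tested.

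Receptors and ligands were also counted apart. Of 35 tested receptors, 18 were called lower in neonates and 1 higher, and their median log2 fold change was -1.02. Among these 35, 7 reached 1 CPM in the adult libraries alone, and they supplied 6 of the 18 calls. Of the 23 receptors that reached it in both libraries of both ages, 9 were called lower and 1 higher, with a median of -0.61. Of 24 tested ligands, antagonists and binding proteins, 4 were called lower and 7 higher, with a median of -0.068. Of the 19 ligands that reached 1 CPM in both libraries of both ages, 3 were called lower and 5 higher. The difference between the receptor and the ligand counts was not tested, and no matching share of all genes was counted for these subsets. Counts assigned to members made up 10.6 and 11.2 of every 10000 counts in neonates and 19.3 and 20.7 in adults. Ccl21 alone supplied 14.8% and 18.0% of the members' counts in neonates and 29.1% and 31.4% in adults. Summed over all members except Ccl21, the level was 1002 and 985 CPM in neonates and 1267 and 1295 CPM in adults.

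**Figure D1:**
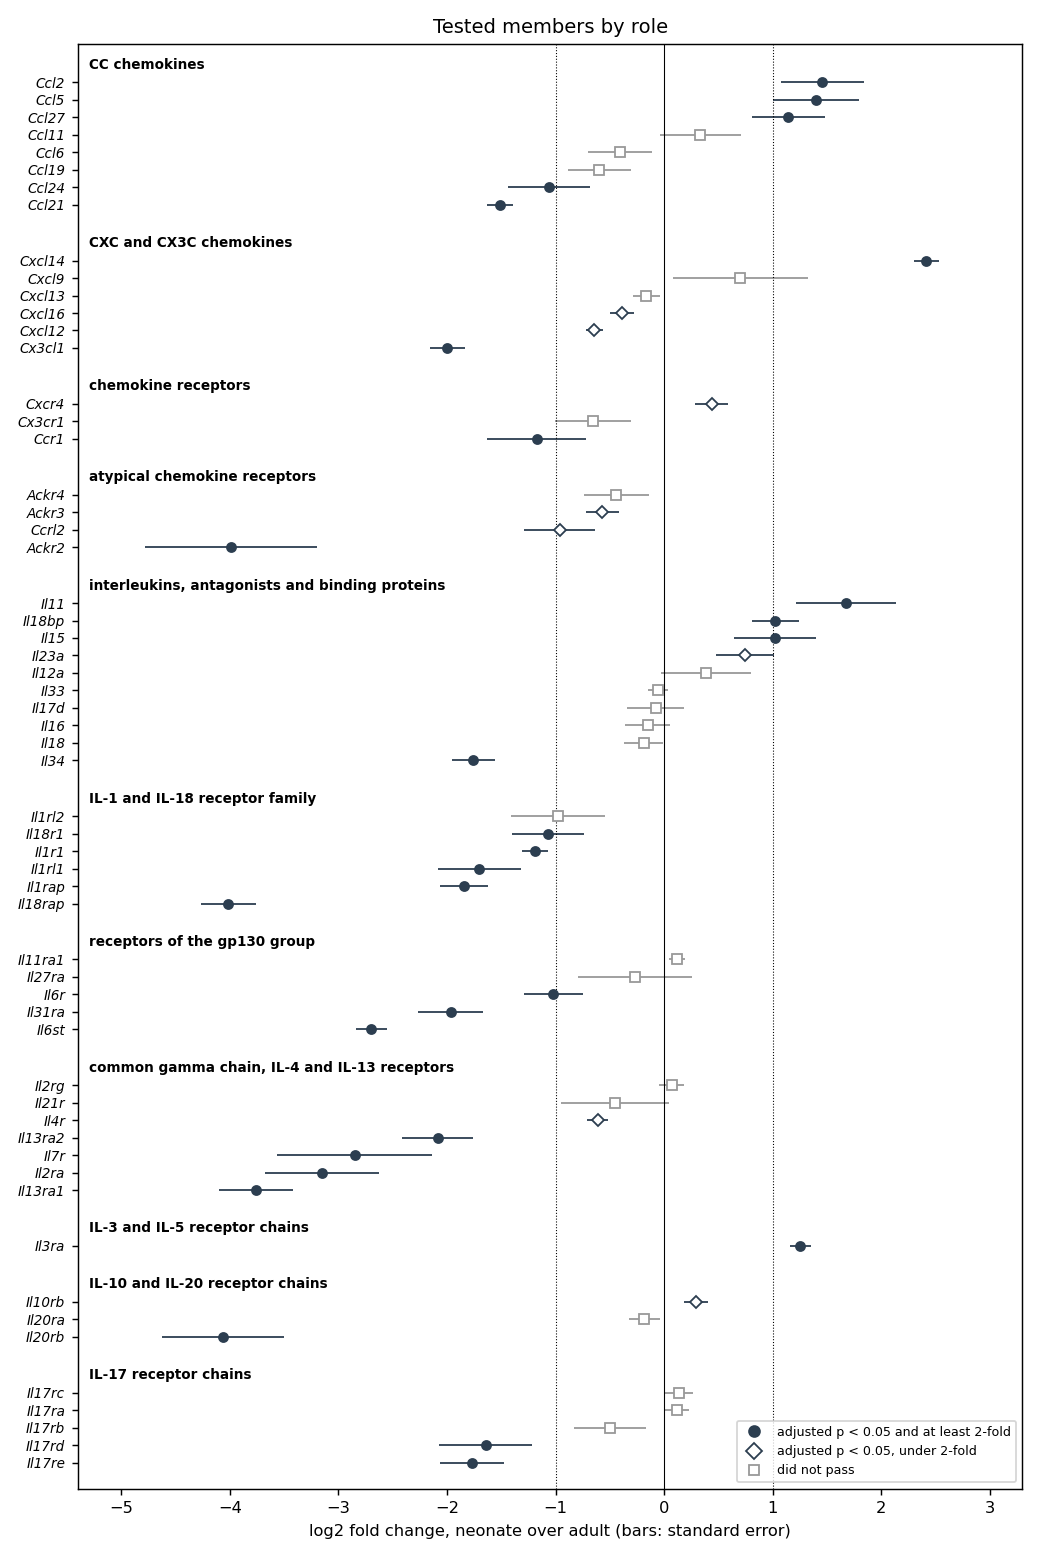
Log2 fold change (neonate over adult, x axis) of 58 of the 59 tested members, grouped by role, with standard error bars; filled circles are called members, open diamonds passed the test with less than a 2-fold difference, and grey squares did not pass. In the interleukin-1 and interleukin-18 receptor family all 6 points lie below 0, while the chemokines and interleukins lie on both sides.

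Among the CC chemokines, 8 of 20 were tested, of which 3 were called higher and 2 lower in neonates. The largest difference in CPM of any member was that of Ccl21, made by lymphatic endothelium and by stromal cells of lymphoid tissue, which guides Ccr7-bearing dendritic cells and T cells. Ccl21 was 174 and 216 CPM in neonates and 520.4 and 593 CPM in adults, a 2.85-fold higher level in adults (log2 fold change -1.51 ± 0.12, adjusted p = 1.52e-05). The ages did not overlap. Ccl19, the other Ccr7 ligand, was 5.20 and 3.03 CPM in neonates and 6.10 and 6.33 CPM in adults (log2 fold change -0.60 ± 0.29, adjusted p = 0.102) and did not pass, although it did without neonate replicate 1 (log2 fold change -1.04, adjusted p = 0.00581). Ccr7 itself stayed below the level tested, with 18 and 10 counts in neonates and 5 and 6 in adults. The summed level of 4 lymphatic endothelial markers was 105 and 115 CPM in neonates and 131 and 151 CPM in adults. Of these, Prox1, the transcription factor that specifies lymphatic endothelium, had a log2 fold change of -2.28, Lyve1 of -0.64 and Pdpn of 0.42, which is higher in neonates. Their part in the Ccl21 difference was not tested.

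The 3 CC chemokines called higher in neonates were low. Ccl2, the main monocyte attractant, was 3.20 and 5.55 CPM in neonates and 1.22 and 1.96 CPM in adults (log2 fold change 1.46 ± 0.38, adjusted p = 0.00877), and did not pass without adult replicate 1 (adjusted p = 0.0646). Ccl5, which attracts T cells and monocytes, was 1.40 and 1.61 CPM in neonates and 0.588 and 0.553 CPM in adults (log2 fold change 1.40 ± 0.40, adjusted p = 0.0135). It did not pass without adult replicate 1 (adjusted p = 0.0838) or adult replicate 2 (adjusted p = 0.10). For Ccl27, a chemokine known from skin, the levels were 4.44 and 2.86 CPM in neonates and 1.59 and 1.71 CPM in adults (log2 fold change 1.14 ± 0.34, adjusted p = 0.0153). Ccl27 overlaps Il11ra1 in the RefSeq GRCr8 annotation, so reads of one may have been assigned to the other, although the estimated counts of both were whole. The same limit holds for other tested members that overlap a protein-coding gene there, among them Il34, Il6r, Il17rd, Cxcl16, Il18, Il17rb and Ackr4. The call of Ccl27 did not hold without neonate replicate 1, adult replicate 1 or adult replicate 2. Ccl24, an eosinophil attractant, was lower in neonates at 0.758 and 1.06 CPM against 1.76 and 2.04 CPM (log2 fold change -1.06 ± 0.38, adjusted p = 0.0342). That call did not hold without neonate replicate 1 (adjusted p = 0.0951), adult replicate 1 (adjusted p = 0.110) or adult replicate 2 (adjusted p = 0.194). The ages did not overlap for Ccl2, Ccl5, Ccl27 or Ccl24. Ccl6 and Ccl11 had log2 fold changes of -0.41 and 0.33 and did not pass.

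Of the CXC and CX3C chemokines, 6 of 13 were tested. Cxcl14, a chemokine of epithelia and stroma, had the largest fold change of the members called higher in neonates. It was 51.3 and 48.6 CPM in neonates and 10.1 and 8.57 CPM in adults, 5.34-fold higher in neonates (log2 fold change 2.42 ± 0.11, adjusted p = 1.83e-06), and passed under every alternative setting. Cx3cl1 (fractalkine), a membrane-bound chemokine of endothelium and neurons, went the other way, with 5.00 and 4.69 CPM in neonates and 20.4 and 18.2 CPM in adults (log2 fold change -2.0 ± 0.16, adjusted p = 1.62e-05). Its receptor Cx3cr1, carried by monocytes and macrophages, was 1.46 and 1.14 CPM in neonates and 2.08 and 2.01 CPM in adults (log2 fold change -0.65 ± 0.35, adjusted p = 0.130) and did not pass. Cx3cl1 thus differed 3.99-fold and Cx3cr1 1.57-fold, both with the higher mean in adults.

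Cxcl12, the stromal chemokine that retains progenitors and leukocytes in tissue, was 108 and 116 CPM in neonates and 171 and 181 CPM in adults (log2 fold change -0.65 ± 0.08, adjusted p = 1.31e-04). The difference passed the test and was below 2-fold. Cxcl12 has a signalling receptor, Cxcr4, and a scavenging receptor, Ackr3, and their levels moved in opposite directions. Cxcr4 was 33.7 and 23.8 CPM in neonates and 21.1 and 21.4 CPM in adults (log2 fold change 0.44 ± 0.15, adjusted p = 0.0329), and Ackr3 was 16.3 and 15.4 CPM in neonates and 20.1 and 26.9 CPM in adults (log2 fold change -0.57 ± 0.15, adjusted p = 0.00935). Neither was called. Cxcr4 did not pass without neonate replicate 1 (adjusted p = 0.316), adult replicate 1 (adjusted p = 0.0774) or adult replicate 2 (adjusted p = 0.0683), nor under scaling by library size alone (log2 fold change 0.19, adjusted p = 0.289), and Ackr3 did not pass without adult replicate 2 (adjusted p = 0.106). The ratio of Ackr3 to Cxcr4 counts, with no correction for length, was 0.483 and 0.649 in neonates and 0.954 and 1.26 in adults. Cxcl16, the ligand of Cxcr6, was 31.6 and 26.7 CPM in neonates and 36.3 and 40.0 CPM in adults (log2 fold change -0.39 ± 0.11, adjusted p = 0.0139), and did not pass without neonate replicate 2 (adjusted p = 0.0752) or adult replicate 2 (adjusted p = 0.0833). Cxcl13, a B cell attractant, had a log2 fold change of -0.16 and Cxcl9, an interferon-induced chemokine, of 0.70, and neither passed.

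**Figure D2:**
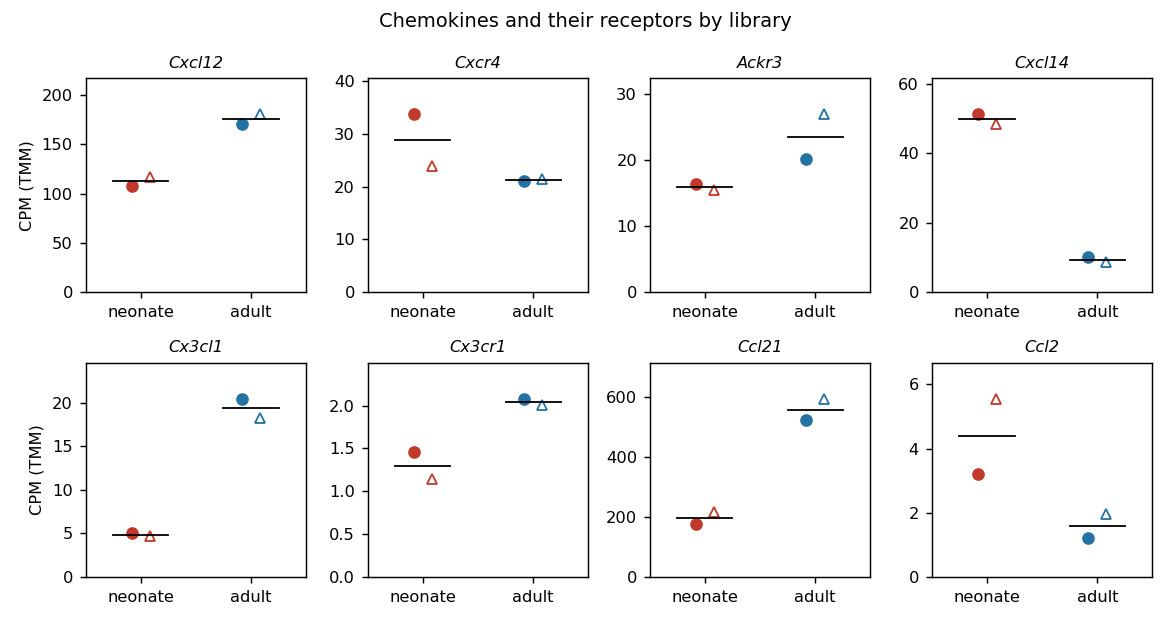
Level (TMM-scaled CPM, y axis from 0) of Cxcl12, Cxcr4, Ackr3, Cxcl14, Cx3cl1, Cx3cr1, Ccl21 and Ccl2 in each library. Filled circles are replicate 1, open triangles replicate 2, and a line marks the mean of each age. Cxcl14 stands at 48.6 to 51.3 CPM in neonates and 8.57 to 10.1 CPM in adults, while Cxcl12, Ackr3, Cx3cl1, Cx3cr1 and Ccl21 have their higher values in adults.

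The promoter of Cxcl14 is shown because it is the member with the largest fold change towards neonates, and that of Il11, described below, because it is the interleukin with the largest such change. Both are the RefSeq windows on GRCr8 from 250 bases before to 50 after the annotated start. Capitals mark a match to TGANTCA, a loose form of the AP-1 motif with any base at N, searched on both strands. The Cxcl14 window is chr17:8322900-8323199 on the plus strand, with its match at position -99.0 from the start, and the Il11 window is chr1:78098372-78098671 on the plus strand, with its match at -142.0.
Cxcl14: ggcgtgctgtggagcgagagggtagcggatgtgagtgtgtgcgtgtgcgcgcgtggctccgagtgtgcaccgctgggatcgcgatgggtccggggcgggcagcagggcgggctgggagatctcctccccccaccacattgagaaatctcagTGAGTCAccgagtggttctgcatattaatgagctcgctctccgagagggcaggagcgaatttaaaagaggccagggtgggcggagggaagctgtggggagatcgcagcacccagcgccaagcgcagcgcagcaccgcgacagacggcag
Il11: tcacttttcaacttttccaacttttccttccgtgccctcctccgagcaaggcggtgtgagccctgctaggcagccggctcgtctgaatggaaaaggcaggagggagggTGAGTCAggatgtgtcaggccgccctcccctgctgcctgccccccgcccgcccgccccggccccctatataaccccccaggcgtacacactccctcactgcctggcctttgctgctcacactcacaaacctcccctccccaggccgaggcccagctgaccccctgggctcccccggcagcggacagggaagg
Promoters were found for 48 of the 59 tested members. The AP-1 letters were in 5 of these 48, namely Cxcl14, Il11, Il15, Il16 and Il18, and in 7.33% of 33469 promoters of the same length. At N, on the strand of the window, Cxcl14 and Il11 held G, Il16 held C, Il15 held T and Il18 held A. Read on the other strand, the Il16 match has the letters of Cxcl14 and Il11, and the Il15 match those of Il18. By call, 3 of 6 windows of members higher in neonates and 0 of 17 of members lower in neonates held the AP-1 letters. A match is a run of letters in a window and shows neither binding nor use of the site.

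Leukocyte chemokine receptors were mostly at or below the level tested, and 4 of 17 were tested. Ccr1, a receptor of monocytes and neutrophils, was 1.91 and 0.694 CPM in neonates and 3.04 and 2.84 CPM in adults (log2 fold change -1.17 ± 0.46, adjusted p = 0.0486), and did not pass without neonate replicate 2 (adjusted p = 0.134), adult replicate 1 (adjusted p = 0.142) or adult replicate 2 (adjusted p = 0.113). Macrophage markers were also higher in adults: 8 of 10 passed lower in neonates and 1, Aif1, higher, and their summed level was 116 and 129 CPM in neonates and 199 and 191 CPM in adults. The summed level of 7 neutrophil markers went the other way, at 8.23 and 6.89 CPM in neonates and 0.979 and 1.94 CPM in adults. The part of either list in the Ccr1 difference was not tested.

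All 4 atypical receptors matched by symbol (Ackr2, Ackr3, Ackr4 and Ccrl2) were tested and had a higher mean in adults. No row was named Ackr1. Ackr2, a scavenger of inflammatory CC chemokines on lymphatic endothelium, was 0.169 and 0 CPM in neonates, from 6 counts and 0, and 1.15 and 1.61 CPM in adults, from 47 and 64 counts (log2 fold change -3.99 ± 0.79, adjusted p = 0.00219). Its fold change is loosely set by so few neonatal counts, and was -3.00 without neonate replicate 2 and -8.75 without neonate replicate 1, where the neonatal count was 0 and the fitted value is no bound. Ccrl2, which binds chemerin and presents it to other cells, was 1.83 and 2.36 CPM in neonates and 3.23 and 4.93 CPM in adults (log2 fold change -0.96 ± 0.33, adjusted p = 0.0287), just under 2-fold, and did not pass without neonate replicate 1 (adjusted p = 0.0708) or adult replicate 2 (adjusted p = 0.285). Ackr4, a scavenger of Ccl19 and Ccl21, did not pass (log2 fold change -0.44 ± 0.30, adjusted p = 0.224).

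Few interleukins reached the level tested: 10 of 38 interleukins, antagonists and binding proteins were tested, of which 3 were called higher in neonates and 1 lower. Il34, a ligand of the macrophage receptor Csf1r, was the one lower in neonates, with 7.81 and 5.14 CPM in neonates and 21.5 and 22.3 CPM in adults, 3.38-fold higher in adults (log2 fold change -1.76 ± 0.20, adjusted p = 8.28e-05). Csf1r itself, which is no interleukin receptor by name, was 16.1 and 18.7 CPM in neonates and 39 and 42.9 CPM in adults (log2 fold change -1.24 ± 0.11, adjusted p = 2.86e-05). Csf1, its other ligand, was 18.1 and 21.2 CPM in neonates and 29.1 and 35.7 CPM in adults (log2 fold change -0.72 ± 0.13, adjusted p = 0.00127). Both ligands and the receptor were thus lower in neonates.

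Il11, a cytokine of stromal cells that signals through gp130, was 1.77 and 3.55 CPM in neonates and 0.612 and 1.06 CPM in adults, 3.19-fold higher in neonates (log2 fold change 1.67 ± 0.46, adjusted p = 0.0116). The call did not hold without neonate replicate 2 (adjusted p = 0.0559) or adult replicate 1 (adjusted p = 0.0824). Its receptor chain Il11ra1 was 143 and 134 CPM in neonates and 125 and 129 CPM in adults (log2 fold change 0.12 ± 0.08, adjusted p = 0.195). Il15, which sustains natural killer and memory T cells, was 2.67 and 4.78 CPM in neonates and 2.18 and 1.48 CPM in adults (log2 fold change 1.02 ± 0.38, adjusted p = 0.0395). This call did not hold without neonate replicate 2 (adjusted p = 0.217), adult replicate 1 (adjusted p = 0.0519) or adult replicate 2 (adjusted p = 0.214), nor under library size alone (adjusted p = 0.104). Il23a, the p19 subunit of interleukin-23, was 4.69 and 5.78 CPM in neonates and 2.82 and 3.44 CPM in adults (log2 fold change 0.74 ± 0.27, adjusted p = 0.0357), below 2-fold. It did not pass without neonate replicate 2 (adjusted p = 0.0939), adult replicate 1 (adjusted p = 0.213) or adult replicate 2 (adjusted p = 0.0837). Il12b, the subunit with which Il23a forms the cytokine, had 0 counts in all 4 libraries. Il12a, Il16 and Il17d did not pass, with log2 fold changes of 0.38, -0.15 and -0.078.

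The interleukin-18 system differed by component. Il18, a cytokine of the interleukin-1 family, was 11.6 and 15.4 CPM in neonates and 17.0 and 13.7 CPM in adults (log2 fold change -0.19 ± 0.18, adjusted p = 0.376), and the ages overlapped. Il18bp, the soluble protein that binds and blocks interleukin-18, was 10.2 and 10.7 CPM in neonates and 4.36 and 5.91 CPM in adults, 2.03-fold higher in neonates (log2 fold change 1.02 ± 0.22, adjusted p = 0.00318). Under library size alone it still passed but fell below 2-fold (log2 fold change 0.78). Il18r1, the ligand-binding chain, was 2.05 and 1.33 CPM in neonates and 3.40 and 3.69 CPM in adults (log2 fold change -1.07 ± 0.33, adjusted p = 0.0194). That call did not hold without neonate replicate 2 (adjusted p = 0.0517), adult replicate 1 (adjusted p = 0.0704) or adult replicate 2 (adjusted p = 0.109). Il18rap, the accessory chain needed for signalling, was 1.71 and 3.55 CPM in neonates and 39.2 and 46.1 CPM in adults, 16.2-fold higher in adults (log2 fold change -4.01 ± 0.25, adjusted p = 5.52e-06). Both adult libraries lay far above both neonatal libraries for this chain. The ratio of Il18rap to Il18r1 counts was 0.836 and 2.67 in neonates and 11.5 and 12.5 in adults. The ratio of Il18bp to Il18 counts was 0.881 and 0.696 in neonates and 0.257 and 0.430 in adults.

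Il18rap belongs to the interleukin-1 receptor family, of which 6 of 9 members were tested, 5 were called lower in neonates and 0 were called higher. Il1r1, the signalling receptor of interleukin-1, was 14.2 and 13.4 CPM in neonates and 29.0 and 33.8 CPM in adults (log2 fold change -1.19 ± 0.12, adjusted p = 4.66e-05). Il1rap, the accessory chain that the receptors of interleukin-1, interleukin-33 and interleukin-36 share, was 3.79 and 3.67 CPM in neonates and 11.4 and 15.4 CPM in adults (log2 fold change -1.85 ± 0.22, adjusted p = 1.18e-04). Both chains were lower in each neonatal library than in each adult library, and both passed under every alternative setting. The ligand Il1b stayed below the level tested, with 8 and 39 counts in neonates and 13 and 11 in adults, and the ages overlapped. Il1a had 0 counts in all 4 libraries. The antagonist Il1rn and the decoy receptor Il1r2 were also below the level.

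Il1rl1, the receptor of interleukin-33, was 0.815 and 1.42 CPM in neonates and 4.26 and 3.02 CPM in adults, 3.25-fold higher in adults (log2 fold change -1.70 ± 0.38, adjusted p = 0.00422). Il33, an alarmin stored in nuclei of stromal and endothelial cells, was 63.9 and 62.2 CPM in neonates and 61.7 and 69.5 CPM in adults (log2 fold change -0.057 ± 0.09, adjusted p = 0.608). The ages overlapped for the ligand and did not overlap for the receptor. Il1rl2, the interleukin-36 receptor, did not pass (log2 fold change -0.98 ± 0.43, adjusted p = 0.0756). In the RefSeq GRCr8 annotation, 6 genes of the family, Il1r2, Il1r1, Il1rl2, Il1rl1, Il18r1 and Il18rap, lie next to each other on chromosome 9, broken only by H3f3al3 between the first 2. Il1rap lies on chromosome 11.

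The promoters of Il1r1 and Il1rap are shown as those of the family's receptor and its shared accessory chain. Both held a match to GGGRNNYYCC, a loose form of the NF-kB motif, marked in capitals and searched on both strands. In it R is A or G, Y is C or T and N is any base. The Il1r1 stretch matches only when read on the other strand. The Il1r1 window is chr9:50034133-50034432 on the plus strand, with its match at -135, and the Il1rap window is chr11:87704293-87704592 on the minus strand, with its match at -85.
Il1r1: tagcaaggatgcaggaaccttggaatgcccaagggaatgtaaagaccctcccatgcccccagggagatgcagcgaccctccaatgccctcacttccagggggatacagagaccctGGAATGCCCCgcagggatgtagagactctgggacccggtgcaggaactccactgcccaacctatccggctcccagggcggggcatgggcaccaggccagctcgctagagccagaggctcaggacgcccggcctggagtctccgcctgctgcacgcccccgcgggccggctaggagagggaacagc
Il1rap: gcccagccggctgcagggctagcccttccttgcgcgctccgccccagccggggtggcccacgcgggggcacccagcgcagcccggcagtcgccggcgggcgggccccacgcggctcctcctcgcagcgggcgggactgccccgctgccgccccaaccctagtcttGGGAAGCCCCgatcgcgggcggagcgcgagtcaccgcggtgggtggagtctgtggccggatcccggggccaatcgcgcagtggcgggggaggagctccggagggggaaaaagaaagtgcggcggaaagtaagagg
This motif was in 5 of 48 member promoters, those of Il1r1, Il1rap, Il6st, Il4r and Il27ra, and in 7.51% of all promoters. Of the 17 windows of members called lower in neonates 3 held it, and of the 6 of members called higher 0 did. The STAT motif TTCNNNGAA was in 5 of 48 member windows (Il18r1, Ccl24, Il17d, Il10rb and Cxcl9) and in 8.87% of all promoters.

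**Figure D3:**
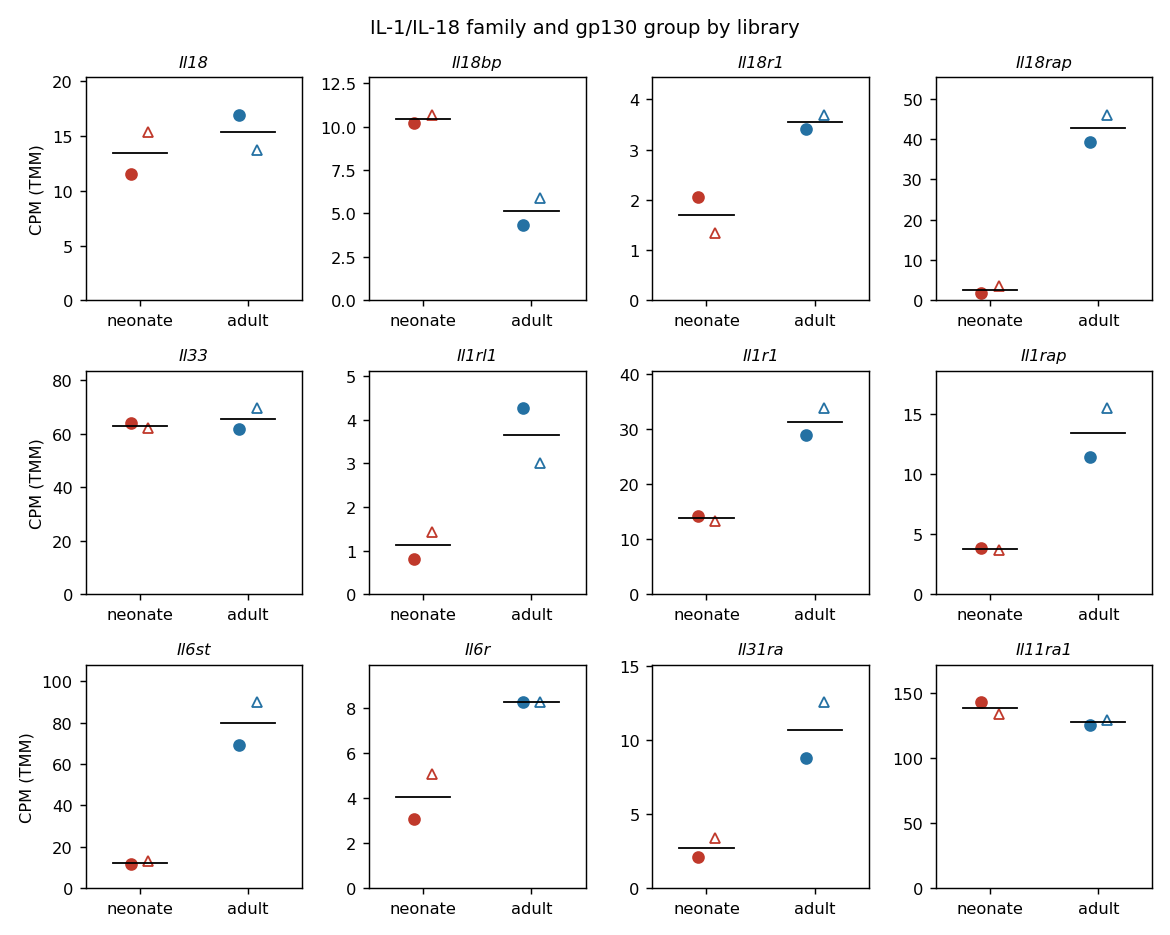
Level (TMM-scaled CPM, y axis from 0) of interleukins, a binding protein and receptor chains of the interleukin-1, interleukin-18 and gp130 groups in each library; filled circles are replicate 1, open triangles replicate 2 and the line is the mean of each age. Il18 and Il33 overlap between ages, and Il18rap is at 1.71 to 3.55 CPM in neonates and 39.2 to 46.1 CPM in adults.

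All 5 receptor chains of the gp130 group were tested, and 3 were called lower in neonates. Il6st, which encodes gp130, the signalling chain shared by interleukin-6, interleukin-11 and related cytokines, was 11.4 and 13.2 CPM in neonates and 69.4 and 89.9 CPM in adults, 6.48-fold higher in adults (log2 fold change -2.70 ± 0.14, adjusted p = 2.93e-06). Il6r, the ligand-binding chain for interleukin-6, was 3.06 and 5.05 CPM in neonates and 8.25 and 8.24 CPM in adults (log2 fold change -1.02 ± 0.27, adjusted p = 0.00973). The ratio of Il6st to Il6r counts was 3.72 and 2.61 in neonates and 8.41 and 10.9 in adults. Il31ra, the interleukin-31 receptor chain of sensory neurons and myeloid cells, was 2.08 and 3.36 CPM in neonates and 8.74 and 12.5 CPM in adults (log2 fold change -1.97 ± 0.30, adjusted p = 4.66e-04). Il31ra is the gene next to Il6st on chromosome 2 of GRCr8. Il27ra did not pass (log2 fold change -0.27 ± 0.52, adjusted p = 0.674).

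The ligand Il6 stayed below the level tested, with 6 and 8 counts in neonates and 0 and 2 in adults. Chains of the same group outside the member list were read beside Il6st. Lifr, the receptor of leukemia inhibitory factor, was 8.29 and 8.55 CPM in neonates and 32.1 and 40.5 CPM in adults (log2 fold change -2.11 ± 0.14, adjusted p = 6.57e-06). Osmr, the oncostatin M receptor, which also pairs with Il31ra, was 3.79 and 2.78 CPM in neonates and 9.38 and 13.5 CPM in adults (log2 fold change -1.80 ± 0.26, adjusted p = 3.83e-04). Both were lower in neonates, as Il6st was. Osm, the ligand, was 1.40 and 1.28 CPM in neonates and 0.514 and 0.377 CPM in adults (log2 fold change 1.58 ± 0.43, adjusted p = 0.0106), which is higher in neonates.

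Of the receptors of the common gamma chain group and of interleukin-4 and interleukin-13, 7 of 10 were tested, 4 were called lower in neonates and 0 higher. Of these 4, Il13ra1, Il2ra and Il7r reached 1 CPM in the adult libraries alone. Il13ra1, which pairs with Il4r, was 0.478 and 0.665 CPM in neonates and 6.44 and 9.15 CPM in adults, 13.5-fold higher in adults (log2 fold change -3.76 ± 0.34, adjusted p = 2.88e-05). Its estimated counts were not whole, so some of its reads may have been shared with another sequence. Il4r, the interleukin-4 binding chain, was 161 and 161 CPM in neonates and 266 and 225 CPM in adults (log2 fold change -0.61 ± 0.09, adjusted p = 5.00e-04), which passed and was below 2-fold. Il13ra2, a decoy that binds interleukin-13, was 1.54 and 1.03 CPM in neonates and 4.68 and 6.26 CPM in adults (log2 fold change -2.09 ± 0.33, adjusted p = 5.81e-04). The 3 chains were thus all lower in neonates, by 1.53-fold for Il4r, 4.24-fold for Il13ra2 and 13.5-fold for Il13ra1, whereas Il4 and Il13 themselves had 0 counts in all libraries.

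Il2ra and Il7r, high-affinity chains of lymphocytes, were called from few counts. Il2ra was 0.169 and 0.111 CPM in neonates, from 6 and 4 counts, and 1.40 and 1.13 CPM in adults, from 57 and 45 counts (log2 fold change -3.15 ± 0.52, adjusted p = 8.06e-04). Il7r was 0.0281 and 0.278 CPM in neonates, from 1 and 10 counts, and 1.32 and 0.930 CPM in adults, from 54 and 37 counts (log2 fold change -2.85 ± 0.71, adjusted p = 0.00713). Its log2 fold change ranged from -2.01 without neonate replicate 1 to -5.17 without neonate replicate 2. The common gamma chain Il2rg was 28.8 and 25.3 CPM in neonates and 23.9 and 27.7 CPM in adults (log2 fold change 0.069 ± 0.12, adjusted p = 0.621) and did not pass, and its counts too were not whole. Its mean was higher in neonates under TMM and higher in adults under library size alone (-0.18). Il21r did not pass (-0.45 ± 0.50, adjusted p = 0.449). Of the CD3 chains of T cells, Cd3e was 0.112 and 0 CPM in neonates and 0.220 and 0.126 CPM in adults, Cd3d was at most 0.0979 CPM, and Cd3g was 0.365 and 1.17 CPM in neonates and 0.612 and 0.653 CPM in adults. Cd4, which macrophages of the rat also carry, was 1.01 and 0.916 CPM in neonates and 7.0 and 7.01 CPM in adults.

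Il3ra was the single receptor chain called higher in neonates. It is the interleukin-3 binding chain of mast cells, basophils, endothelium and plasmacytoid dendritic cells. Il3ra was 46.5 and 44.7 CPM in neonates and 18.4 and 19.8 CPM in adults, 2.38-fold higher in neonates (log2 fold change 1.25 ± 0.10, adjusted p = 1.33e-05), and passed under every alternative setting. Il3 itself had 0 counts. Mast cell markers moved the same way: 4 of 6 tested passed higher in neonates (Cpa3, Cma1, Tpsb2 and Hdc) and 2 (Kit and Ms4a2) did not pass, with a summed level of 78.2 and 81.8 CPM in neonates and 28.3 and 24.6 CPM in adults. Endothelial markers had a summed level of 953 and 987 CPM in neonates and 931 and 949.7 CPM in adults. Their part in the Il3ra difference was not tested.

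Il20rb, a chain of the interleukin-20 and interleukin-24 receptors, was, with Il18rap and Ackr2, among the 3 members with the largest fold changes. It was 0.253 and 0.0555 CPM in neonates, from 9 and 2 counts, and 2.74 and 2.49 CPM in adults, from 112 and 99 counts (log2 fold change -4.06 ± 0.56, adjusted p = 2.81e-04). The log2 fold change was -5.48 without neonate replicate 1 and -3.35 without neonate replicate 2. Il20ra, its partner chain, was 67.1 and 59.0 CPM in neonates and 82.8 and 60.2 CPM in adults (log2 fold change -0.18 ± 0.14, adjusted p = 0.290), and the ages overlapped. Il10rb, shared by the interleukin-10 and interleukin-22 receptors, was 29.0 and 25.0 CPM in neonates and 21.3 and 22.8 CPM in adults (log2 fold change 0.29 ± 0.11, adjusted p = 0.0464), close to the threshold. It did not pass without neonate replicate 1 (adjusted p = 0.270), adult replicate 1 (adjusted p = 0.187) or adult replicate 2 (adjusted p = 0.0756), and its log2 fold change was 0.045 under library size alone.

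All 5 interleukin-17 receptor chains were tested. Il17ra and Il17rc, which form the receptor of interleukin-17A, did not pass. Il17ra was 37.5 and 34.6 CPM in neonates and 30.6 and 35.8 CPM in adults (log2 fold change 0.12 ± 0.11, adjusted p = 0.353), and Il17rc was 15.1 and 16.0 CPM in neonates and 13.6 and 14.8 CPM in adults (log2 fold change 0.13 ± 0.13, adjusted p = 0.404). Their direction turned under library size alone, to -0.13 and -0.11. Il17re, the receptor of epithelial interleukin-17C, was 1.69 and 1.80 CPM in neonates and 4.95 and 6.96 CPM in adults, 3.41-fold higher in adults (log2 fold change -1.77 ± 0.29, adjusted p = 7.62e-04). Il17rd, a chain that also restrains fibroblast growth factor signalling, was 0.702 and 0.639 CPM in neonates and 1.52 and 2.69 CPM in adults (log2 fold change -1.64 ± 0.43, adjusted p = 0.00848), and did not pass without adult replicate 2 (adjusted p = 0.128). Il17rb did not pass (-0.50 ± 0.33, adjusted p = 0.215). The ligands Il17a, Il17c and Il17f had 0 counts in all libraries.

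**Figure D4:**
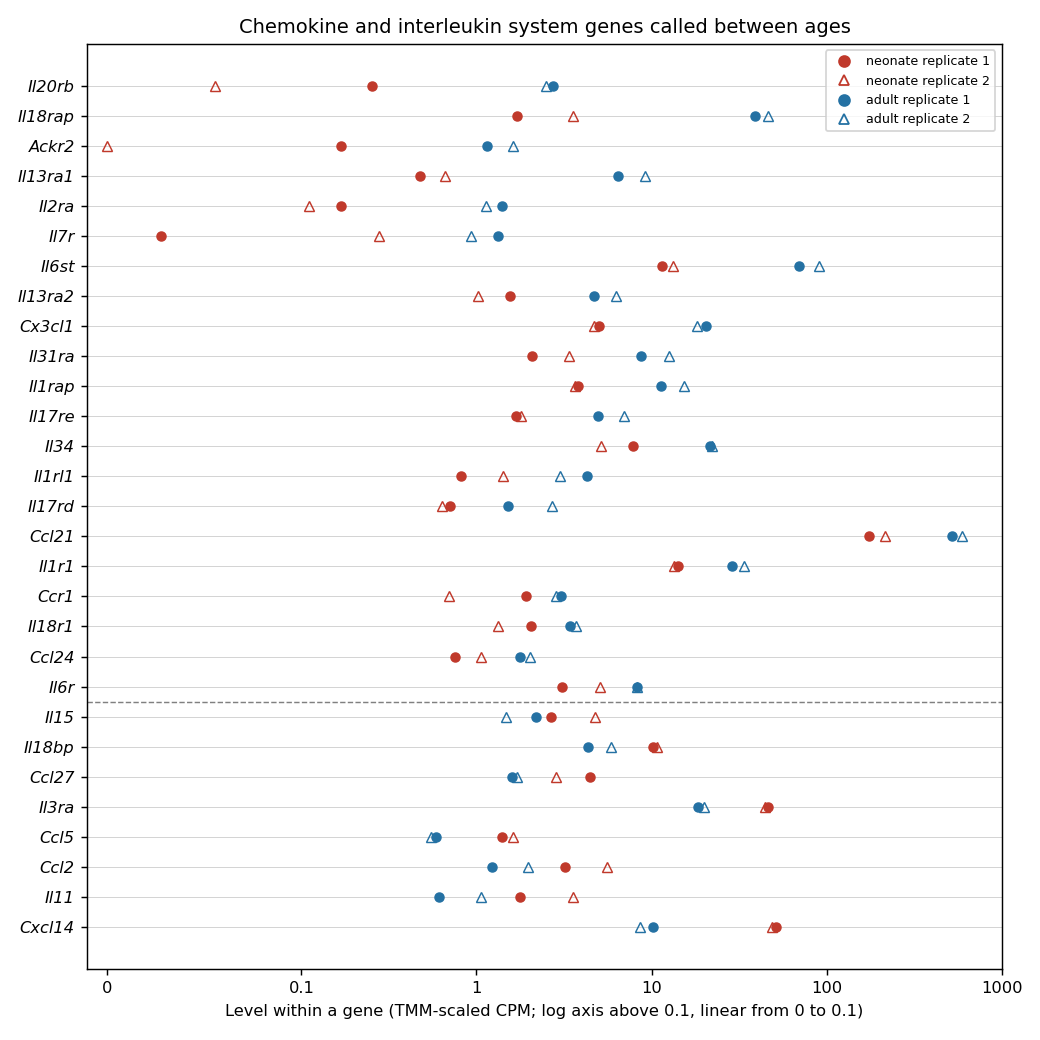
Level (TMM-scaled CPM, log x axis above 0.1 and linear from 0 to 0.1) of 29 of the 30 called members in each library, with 21 lower in neonates above the dashed line and 8 higher below it; red marks are neonates, blue marks adults, circles replicate 1 and triangles replicate 2. The red and blue marks do not overlap for any of the 29 genes, which were drawn because they were called. Among all genes tested, the libraries of the 2 ages did not overlap for 82.9%.

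Of the 73 members below the level, 24 had 0 counts in all 4 libraries, and 16 of those were interleukins, among them Il4, Il5, Il9, Il13, Il17a and Il22. A count of 0 allows a level of up to 0.0734 to 0.0843 CPM in these libraries, for counting error only. Another 9 had at most 3 counts in any library and 40 had more. The highest of them in a single library was Il9r, the interleukin-9 receptor of mast and T cells, with 4 and 0 counts in neonates and 50 and 29 in adults. Cxcr5, the receptor of Cxcl13, had 2 and 8 counts in neonates and 34 and 46 in adults, and overlaps Bcl9l in the annotation. The neutrophil attractant Cxcl1 had 6 and 39 counts in neonates and 11 and 12 in adults, so that neonate replicate 2 was the high library, as it was for Il1b. Both are inflammatory genes. Il10ra, the interleukin-10 binding chain, had 13 and 2 counts in neonates and 35 and 40 in adults. These members were not tested.

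Downstream of the receptors, 47 of 50 genes of the JAK-STAT, MyD88 and NF-kB lists were tested. Of these, 20 passed lower in neonates, 4 passed higher and 23 did not pass, with 6 called, all lower in neonates. The 6 calls are 12.8% of the genes tested, close to the 13.2% of all genes called lower. Without the minimum fold, 42.6% passed lower and 8.51% higher, beside 31.1% and 31.2% of all genes. The called genes with the largest changes were Socs7 (log2 fold change -2.11 ± 0.37, adjusted p = 0.00106), Socs4 (log2 fold change -2.05 ± 0.31, adjusted p = 4.38e-04) and Tab3 (log2 fold change -1.95 ± 0.36, adjusted p = 0.00145). Socs proteins restrain cytokine receptor signals, and Tab3 links receptor complexes to the kinase Tak1. Stat5b, a transcription factor activated by the gamma chain and interleukin-3 receptors, was 9.77 and 10.2 CPM in neonates and 27.9 and 35.1 CPM in adults (log2 fold change -1.66 ± 0.14, adjusted p = 1.95e-05). The counts of Stat5b and of its close relative Stat5a were not whole and added up to whole numbers, so reads may have been divided between the 2 genes and the value of each is uncertain. Together they had 809 and 758 counts in neonates and 1819 and 2030 in adults. Nfkbia, the NF-kB inhibitor and itself an NF-kB target, was 64.0 and 96.8 CPM in neonates and 195 and 208 CPM in adults (log2 fold change -1.32 ± 0.16, adjusted p = 1.32e-04), and Tnfaip3, another inhibitor, was lower in neonates too (log2 fold change -1.36 ± 0.34, adjusted p = 0.00692). Among the kinases that bind the receptor chains, Jak1 was lower in neonates (log2 fold change -0.89 ± 0.09, adjusted p = 4.94e-05), while Jak3, the partner of the common gamma chain, was higher (log2 fold change 0.73 ± 0.11, adjusted p = 5.84e-04), as was Tyk2 (log2 fold change 0.48 ± 0.10, adjusted p = 0.00276). Stat3, the main factor activated by gp130, was 81.8 and 88.0 CPM in neonates and 149.6 and 133 CPM in adults (log2 fold change -0.74 ± 0.09, adjusted p = 1.11e-04). The lists were chosen with earlier results of these data known.

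Leukocyte transcripts did not all move one way. Of the macrophage markers 8 of 10 were lower in neonates, as was Ptprc, the pan-leukocyte phosphatase (log2 fold change -1.38 ± 0.23, adjusted p = 7.58e-04). Of the mast cell markers 4 of 6 tested passed higher in neonates. Only 2 of 7 neutrophil markers, S100a8 and S100a9, and 1 of 6 B cell markers, Cd79a, reached the level tested, and these 3 were higher in neonates. The summed level of 7 neutrophil markers was 8.23 and 6.89 CPM in neonates and 0.979 and 1.94 CPM in adults. Of these, the granule gene Mpo was 3.26 and 0.305 CPM in neonates and 0.0490 and 0.126 CPM in adults, so that it supplied much of the sum in neonate replicate 1, Ngp was 0.983 and 1.30 CPM in neonates and 0.196 and 0.452 CPM in adults, and Ltf was at 0 in all 4 libraries. For 6 B cell markers it was 3.37 and 5.28 CPM in neonates and 0.734 and 0.832 CPM in adults. For 10 T cell and thymocyte markers it was 7.33 and 6.77 CPM in neonates and 13.2 and 12.5 CPM in adults. Without Cd4 the other 9 summed to 6.32 and 5.86 CPM in neonates and 6.17 and 5.45 CPM in adults, and Lck, the other tested marker, did not pass (log2 fold change -0.01 ± 0.26, adjusted p = 0.976). For the whole leukocyte list of 5 genes it was 53.2 and 54.9 CPM in neonates and 65.8 and 66.3 CPM in adults, with 2 lower in neonates, 1 higher and 2 not passing. Members that were called fell on both sides of these differences. Ccr1 differed in the same direction as the macrophage list and opposite to the neutrophil list, and Il3ra in the direction of the mast cell list. Adipocyte markers were lower in neonates too, at 5.22 and 6.41 CPM in neonates and 24.3 and 35.7 CPM in adults. The part of any of these cell types in the members' differences was not tested.

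**Figure D5:**
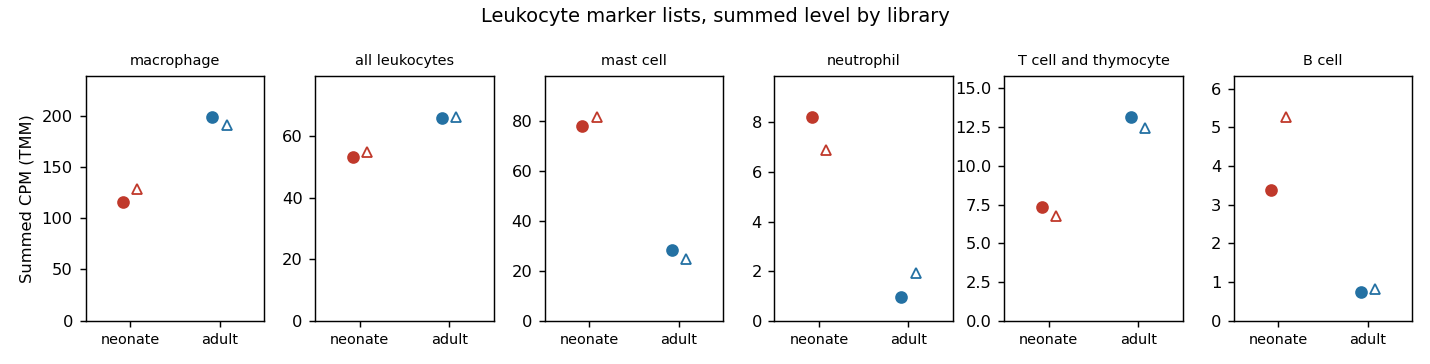
Summed level (TMM-scaled CPM, y axis from 0) of 6 leukocyte marker lists in each library, with filled circles for replicate 1 and open triangles for replicate 2. The summed macrophage and pan-leukocyte levels are higher in both adult libraries, as is the T cell sum through Cd4 alone, and the mast cell, neutrophil and B cell sums are higher in both neonatal libraries.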

How the data were processed

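CBs of neonatal (day 5) and adult (day 21) rats had been sequenced as paired-end poly A+ libraries on an Illumina platform. Per the study's methods and the labels, the authors mapped reads with STAR and quantified them with Salmon 1.5.2 on the rat reference Rnor_6.0, and deposited 1 table of estimated counts per gene, with no normalization, in which 5.02% to 6.19% of genes per library had counts that were not whole. Gene symbols were taken from the table.

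From these, estimated counts were rounded, and 636 rows annotated as other than protein-coding in the RefSeq GRCr8 gene table were removed. Of the 32883 rows, 13665 had no match in the RefSeq table by symbol or synonym. These were not removed at this step, so the genes tested may include some that are not protein-coding. Genes with at least 1 CPM of the library total in at least 2 libraries were kept (13843). TMM factors (0.902 and 0.935 in neonates, 1.08 and 1.10 in adults) and the quasi-likelihood test of edgeR 4.0.16 in R 4.3.3 were applied to the 4 libraries with no covariate, and p-values were adjusted by Benjamini-Hochberg over all genes. The test was checked on simulated data. Depth was 36286191 to 39476110 counts per library. Members and gene lists were chosen with earlier results of these data known. Values are given for the called members, for a list of receptors and ligands of known roles, and otherwise as ranges and counts, except that 1 called member is counted but not reported here. Library groups and replicate numbers came from the titles. Alternatives were DESeq2 1.42.0, limma 3.58.1 with voom, other scalings and filters, a replicate block, and each library left out. Promoters came from RefSeq GRCr8 with no conversion between builds.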

Additional observations from a re-analysis of the deposited data

How the results depend on the processing

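With DESeq2, limma-voom, RLE size factors, no filter on low counts, TMM without mitochondrial and ribosomal protein genes, all genes kept or only protein-coding genes, 7 or 8 members were called higher and 21 to 23 lower in neonates. Scaling by library size alone called 5 members higher, and 10 signalling genes lower where TMM scaling called 6. Requiring a mean of at least 5 CPM left 30 members, of which 2 were called higher and 9 lower, and 2 signalling genes lower, since fewer genes were tested. With no minimum fold, 4 signalling genes were higher and 20 lower. Leaving out each library in turn called 2 to 8 members higher and 18 to 23 lower, with the fewest higher without adult replicate 1, and 0 signalling genes higher and 5 to 7 lower. Of the 30 called members, 21 passed in every alternative that tested them, 18 of the 22 lower in neonates and 3 of the 8 higher (Cxcl14, Il3ra and Il18bp). The call of Ccl24 was also lost with DESeq2 (adjusted p = 0.0791) and that of Ccr1 with RLE size factors (adjusted p = 0.0526). With no filter on low counts, Ccl24, Ccr1 and Il15 lay just above the threshold (adjusted p = 0.0504 to 0.0551). The cause was not tested. Among members that did not pass, library size alone turned the direction of Il11ra1 (-0.13), Il17ra (-0.13), Il17rc (-0.11) and Il2rg (-0.18). Leaving out each library in turn changed the direction of 9 members, none of which passed in the fit on all 4 libraries. Their log2 fold changes ranged from -0.52 to 0.15 for Il16, -0.57 to 0.29 for Il17d (0.026 without adult replicate 1), -0.40 to 0.0023 for Il18, -0.034 to 0.18 for Il2rg (-0.028 without neonate replicate 1), -0.44 to 1.33 for Cxcl9, -1.33 to 0.10 for Il21r, -1.39 to 0.37 for Il27ra, -0.39 to 0.065 for Il20ra and -0.14 to 0.030 for Il33. The labels do not say whether libraries of the same replicate number are paired between the ages. The correlation of the replicate differences over genes was -0.015, which cannot decide this, as it does not show which litters were pooled. With the replicate block 7 members were called higher and 22 lower, against 8 and 22 without it. With 2 pools per age, the calls of Ccl5, Ccl24 and Ccr1, which lie near 1 CPM, were lost with a single library left out. A level near 1 CPM did not by itself mark such calls. Ackr2 and Il2ra passed in every alternative that tested them, while Ccl2 and Ccl27, at higher levels in neonates, did not.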
